A study of Mus musculus with 38 samples.

Results

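The transcripts described here encode the enzymes that cut the amyloid precursor protein APP and those that break down the amyloid-β peptide (Aβ) released from it. The 10 genes were taken from a list of symbols and found by Ensembl identifier among 48709 genes in the read counts of every mouse. They are the β-secretase Bace1 and its paralog Bace2, the α-secretases Adam10 and Adam17, the γ-secretase subunits Ncstn, Aph1a and Psenen, and the Aβ-degrading peptidases Mme, Ide and Ece1. RNA was isolated from the hippocampus of 38 mice on the C57BL/6 strain, either APPPS1ΔE9 mice or WT littermates. APPPS1ΔE9 mice carry transgenes for a mutant APP and a mutant presenilin, driven by a prion promoter and not by the promoters of those genes. In the pre-plaque cohort, mice received chow from 2 months of age for 4 months and were 6 months old at analysis. In the post-plaque cohort, the chow started at 6 months of age and the mice were 10 months old. The chow held 2 g per kg of anle138b, a diphenylpyrazole given by mouth, or was the same chow without it (placebo). The pre-plaque groups held 4 mice each. The post-plaque groups held 5 WT placebo, 5 WT anle138b, 5 APPPS1ΔE9 placebo and 7 APPPS1ΔE9 anle138b mice.

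APP is a membrane protein that is cut along alternative routes. A cut by an α-secretase, of which Adam10 is the main one in neurons, falls inside the Aβ stretch and prevents its release. A cut by Bace1 opens the amyloidogenic route, and γ-secretase, a complex of a presenilin with nicastrin (Ncstn), Aph1 and Pen-2 (Psenen), then frees Aβ from the remaining stub. Released Aβ is degraded by neprilysin (Mme), insulin-degrading enzyme (Ide) and the endothelin-converting enzyme Ece1, among other proteases. The comparisons ask whether the transcripts of this machinery differed with the transgenes, with anle138b and between the cohorts.

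Some features of the libraries touched these comparisons. Each library held between 15847985 and 31895808 counted reads. App was at 1522 to 1799 CPM (counts scaled to a common library total) in the 18 WT mice and at 3274 to 4286 CPM in the 20 APPPS1ΔE9 mice, and 4 pre-plaque WT placebo libraries with a conflicting genotype label lay on the WT side. High Xist was found in 11 of 18 WT and 1 of 20 APPPS1ΔE9 libraries, although the study's methods describe male mice. Sex, as read from Xist, was thus uneven between the genotypes and cannot be fully told apart from genotype. Genotype and chow were nearly tied to the sequencing lane. APPPS1ΔE9 mice on placebo were all labelled lane 5, and those on anle138b lane 6 except 1 post-plaque mouse. Of the post-plaque WT mice, 4 of 5 on placebo were labelled lane 3 and 5 of 5 on anle138b lane 4. A lane can thus not be told apart from genotype, nor from chow in APPPS1ΔE9 mice, and hardly from chow in post-plaque WT mice. The titles give the same sample and lane numbers to mice of both cohorts. A lane number may thus name different lanes in each cohort, and any difference in sequencing run cannot be told apart from cohort. The 6 markers of the hippocampal fields summed to 635 to 973 CPM and were above 0 in every mouse, as were the oligodendrocyte and choroid plexus markers below. Choroid plexus markers (Ttr, Folr1, Kl, Clic6, Kcnj13 and Aqp1) summed to 3963 to 7961 CPM in 10 of 16 pre-plaque mice and to 4348 CPM in 1 of 22 post-plaque mice, against 32.8 to 718 CPM in the others. Oligodendrocyte markers (Mbp, Mog, Mobp, Mag and Cldn11) summed to 1478 to 2516 CPM in 9 post-plaque mice and to 3466 to 5093 CPM in the other 13, with 3148 to 4306 CPM in the pre-plaque mice. In whole tissue, fewer cells of a type and less RNA per cell cannot be told apart.

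All 10 genes passed the filter on low counts in every comparison. Per kilobase of exon, the most abundant were Adam10 (20.7 ± 1.43 CPM per kilobase, mean ± SD, n = 38 mice), Bace1 (18.9 ± 1.03) and Ncstn (16.7 ± 0.973). Ece1 (7.91 ± 0.755) and Ide (7.47 ± 0.390) followed, then Psenen (3.55 ± 0.462) and Adam17 (2.99 ± 0.256). The lowest levels per kilobase were those of Aph1a (1.32 ± 0.182), Mme (0.819 ± 0.148) and Bace2 (0.511 ± 0.287). Adam10 was thus the higher α-secretase transcript and Bace1 the higher β-secretase transcript. The ranges over the mice did not meet between Ncstn and Ece1, between Ide and Psenen, or between Adam17 and Aph1a. All other neighbours in this order overlapped in range. Adam10 exceeded Bace1 in 35 of 38 mice, Bace1 exceeded Ncstn in 36 and Ece1 exceeded Ide in 26.

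**Figure D1:**
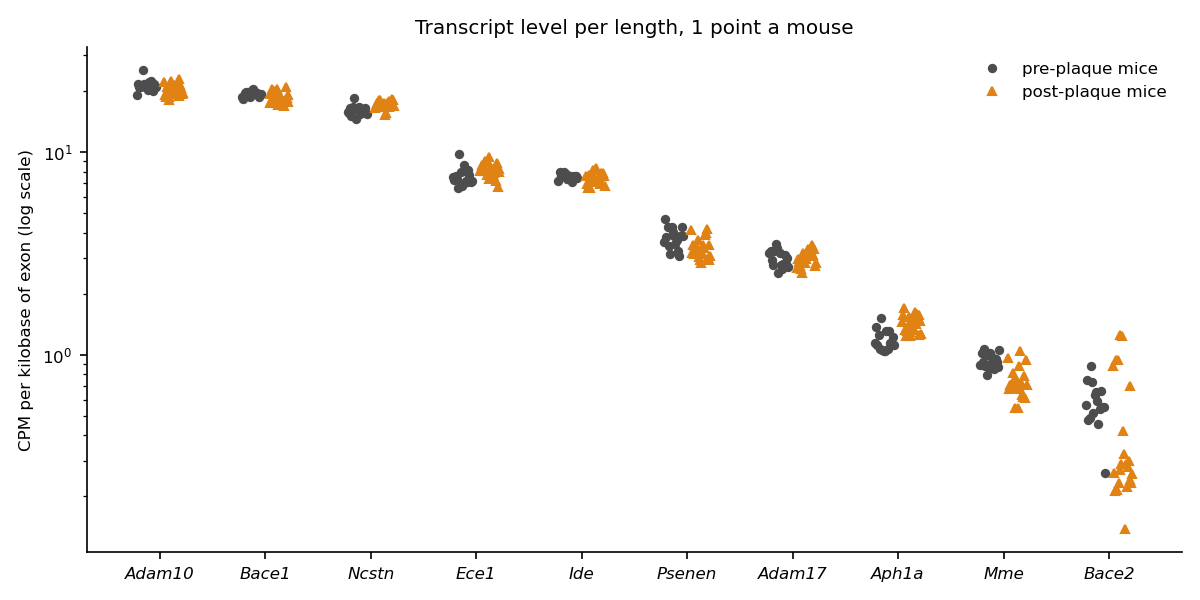
Level of each transcript per length in every mouse, in CPM per kilobase of exon on a log axis, with circles for pre-plaque and triangles for post-plaque mice. Adam10, Bace1 and Ncstn form the upper tier, and Bace2 spreads from 0.137 to 1.26 CPM per kilobase.

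Several of these genes share exon sequence with a neighbour on the opposite strand, and whether the counting used strand is not given in the sources used here. In the GRCm38 (mm10) annotation, 32.47% of the exonic bases of Bace1 (chr9:45838580-45864399, plus strand) overlap other genes. Among them, Rnf214 shares 975 bases and Gm49338 shares 951, but Gm49338 is not among the counted genes. For Aph1a (chr3:95893969-95898288, plus strand) 12.9% overlap Car14, and for Psenen (chr7:30561863-30563627, minus strand) 9.33% overlap U2af1l4 and Gm49396. The overlaps of Ncstn (chr1:172066013-172082795, minus strand) and Adam17 (chr12:21323509-21373632, minus strand) cover 4.91% and 4.35%. Bace2 (chr16:97356742-97442936), Adam10 (chr9:70678997-70780229), Mme (chr3:63241537-63386030), Ece1 (chr4:137862237-137965229) and Ide (chr19:37268743-37337852) share none. Reads in shared stretches can be lost, which lowers a level in all mice alike. The exon length of Bace1 used above includes its shared stretches, so its place per kilobase below Adam10 is uncertain. Aph1a and Psenen rested on 65 to 160 and on 70 to 158 reads per mouse, and Bace2 on 27 to 264, whereas Bace1 rested on 1968 to 3795.

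Bace1, the enzyme that starts Aβ production, was among the steadiest of the 10. In the pre-plaque cohort it was at 116, 118, 124 and 126 CPM in WT placebo mice and at 119, 121, 125 and 127 CPM in WT anle138b mice. The APPPS1ΔE9 mice of that cohort had 124, 124, 126 and 129.5 CPM on placebo and 118, 122, 124 and 124 CPM on anle138b. The groups overlapped. Over all 8 groups of both cohorts, the within-group SD was 0.08 on the log2 CPM scale, a spread that 7.59% of all tested genes undercut. In the post-plaque cohort Bace1 was at 111, 113, 114, 123 and 130.2 CPM in WT placebo mice and at 108.2, 113, 125, 127 and 129.96 CPM in WT anle138b mice. Post-plaque APPPS1ΔE9 mice had 111, 113, 116, 122 and 123 CPM on placebo, and between 107 and 132 CPM with a median of 115 CPM on anle138b. Each post-plaque group held high and low mice, so that the groups overlapped over most of their range.

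Bace2, which cuts APP within the Aβ stretch and is scarce in neurons, had the widest spread of the 10. Its pre-plaque values ran from 2.05 to 6.90 CPM, with group means of 4.50 ± 1.02 (WT placebo), 5.44 ± 1.201 (WT anle138b), 4.41 ± 0.671 (APPPS1ΔE9 placebo) and 3.98 ± 1.35 CPM (APPPS1ΔE9 anle138b; SD, n = 4 each). Post-plaque WT placebo mice had 1.68, 1.70, 2.06, 6.92 and 7.41 CPM, and WT anle138b mice had 1.84, 2.13, 2.27, 7.46 and 9.90 CPM. Post-plaque APPPS1ΔE9 placebo mice had 1.08, 2.27, 2.56, 3.32 and 9.70 CPM, and those on anle138b lay between 1.76 and 5.55 CPM with a median of 2.03 CPM. Thus 6 of 22 post-plaque mice, found in all 4 groups, stood at 5.55 to 9.90 CPM and the other 16 at 1.08 to 3.32 CPM. The within-group SD of Bace2 was 0.78 (log2 CPM), larger than that of 96.8% of tested genes, and the median of the 200 genes nearest to it in level was 0.27.

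Of the α-secretases, Adam10 stayed between 88.7 and 124.9 CPM over all mice, with the highest group mean at 109.8 CPM (pre-plaque WT anle138b). Adam17, the sheddase that also releases tumour necrosis factor, was at 19.9, 21.02, 22.6 and 23.2 CPM in pre-plaque WT placebo mice and at 18.1, 23.1, 24.2 and 25.2 CPM in WT anle138b mice. Pre-plaque APPPS1ΔE9 mice had 19.01, 19.9, 20.1 and 22.8 CPM on placebo and 19.4, 20.01, 21.5 and 22.2 CPM on anle138b. In that cohort the APPPS1ΔE9 means were thus the lower ones, within overlapping groups. Post-plaque WT mice had 19.3, 19.5, 20.6, 20.6 and 21.2 CPM on placebo and 18.04, 19.01, 20.3, 21.65 and 22.7 CPM on anle138b. Post-plaque APPPS1ΔE9 mice had 21.3, 22.02, 22.1, 22.4 and 23.9 CPM on placebo, and 19.7 to 24.9 CPM with a median of 22.6 CPM on anle138b. The placebo values lay just above those of the WT placebo mice, the nearest being 21.28 and 21.23 CPM. Without TMM scaling of the library totals the placebo groups overlapped, with the same mice at 21.5 and 21.6 CPM. How many genes separate in this way was not counted.

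Among the γ-secretase subunits, Ncstn ranged from 58.1 to 73.9 CPM and had the smallest within-group SD of the 10 genes (0.07, log2 CPM). Aph1a, the scaffold subunit, was at 3.86, 3.96, 4.32 and 4.71 CPM in pre-plaque WT placebo mice and at 4.28, 4.58, 4.99, 5.40 and 5.84 CPM in the post-plaque WT placebo mice. In the APPPS1ΔE9 placebo mice it was at 3.61, 3.69, 4.52 and 4.53 CPM pre-plaque and at 4.57, 4.65, 5.02, 5.15 and 5.60 CPM post-plaque. The latter pair of groups did not overlap. Psenen, the subunit that triggers maturation of the complex, ran from 3.91 to 5.94 CPM pre-plaque and from 3.61 to 5.33 CPM post-plaque.

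Of the Aβ-degrading enzymes, Ide ranged from 49.8 to 62.9 CPM and Ece1 from 35.3 to 51.8 CPM. The within-group SD (log2 CPM) was 0.08 for Ide and 0.13 for Ece1, beside a median of 0.11 for the 200 genes nearest to each in level. Neprilysin, Mme, was at 10.3, 10.7, 11.7 and 12.4 CPM in pre-plaque WT placebo mice and at 7.85, 7.88, 7.94, 8.14 and 11.1 CPM in post-plaque WT placebo mice. In APPPS1ΔE9 placebo mice Mme was at 9.78, 10.6, 11.1 and 11.7 CPM pre-plaque and at 6.30, 7.82, 8.60, 10.2 and 12.1 CPM post-plaque. Most post-plaque mice were low, and in both genotypes 1 or more of them reached the pre-plaque range.

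**Figure D2:**
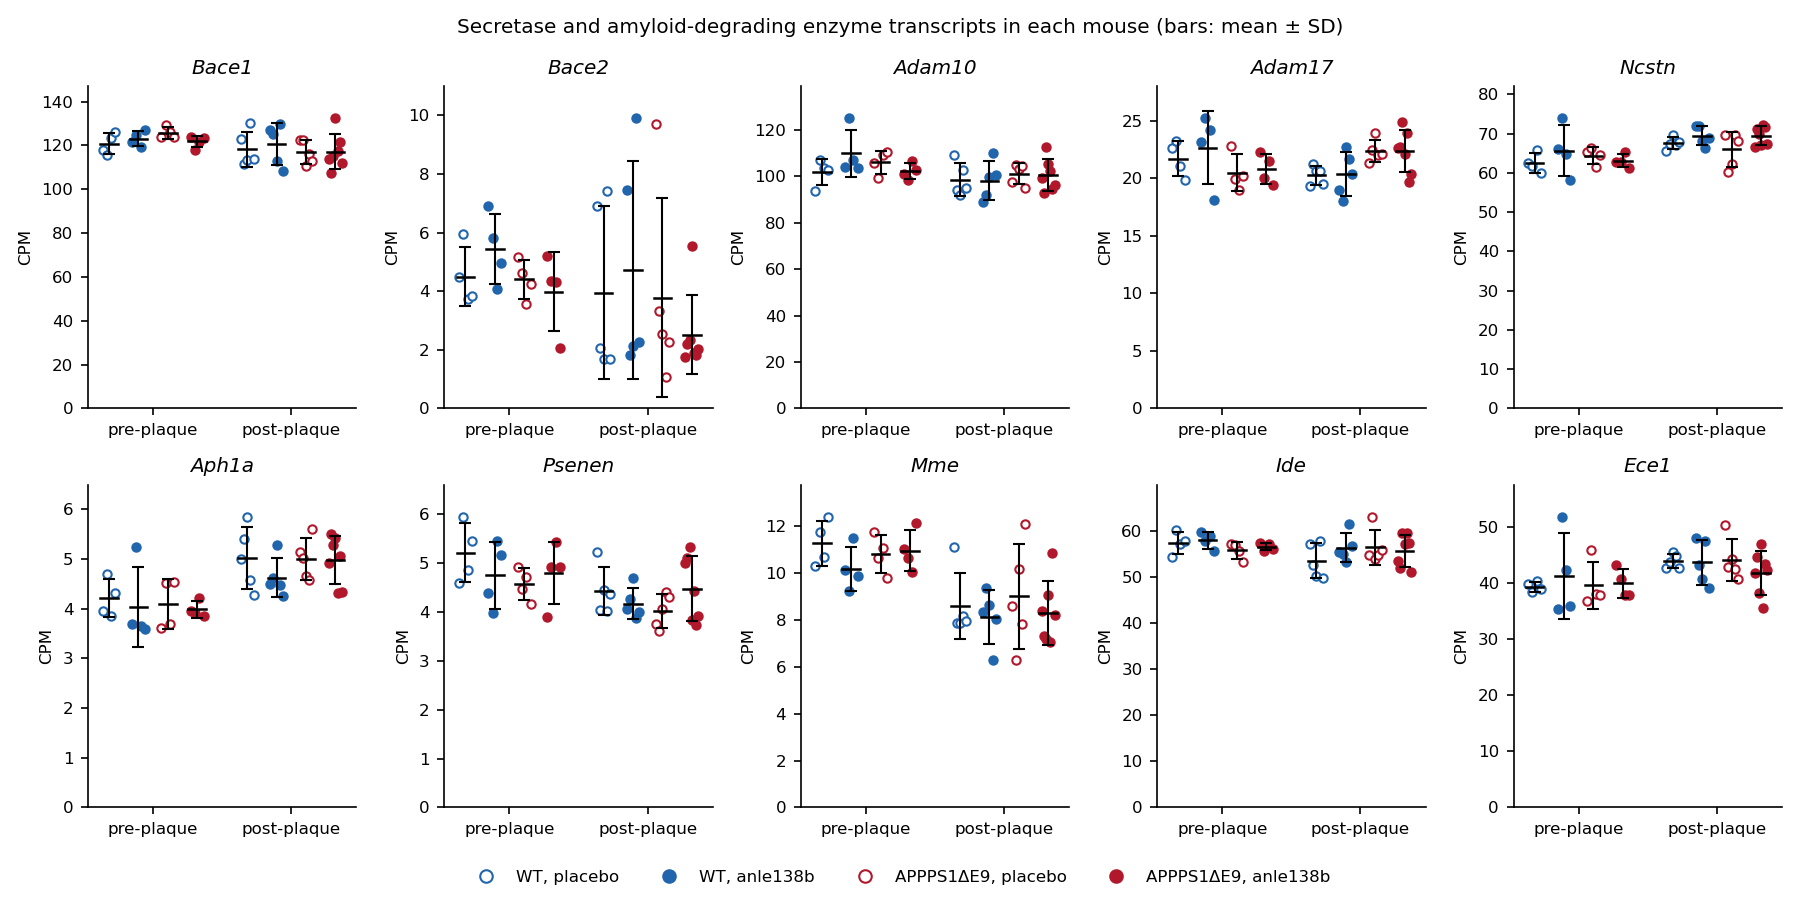
CPM of the 10 transcripts in each of 38 mice, by cohort and group, with blue for WT, red for APPPS1ΔE9, open circles for placebo and filled circles for anle138b, and bars for the mean ± SD. Post-plaque Bace2 separates into 6 mice at 5.55 to 9.90 CPM and 16 mice at 1.08 to 3.32 CPM, which lie in all 4 groups.

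No transcript of the secretase machinery or of the Aβ-degrading enzymes differed between APPPS1ΔE9 and WT mice past an adjusted p of 0.1 (edgeR quasi-likelihood test, Benjamini-Hochberg over all tested genes). This was 0 of 10 in each of the 4 pairs of groups. Over all genes, 0.0715% passed in pre-plaque placebo mice, 0.047% in pre-plaque anle138b mice, 0.324% in post-plaque placebo mice and 0.723% in post-plaque anle138b mice. With so few genes passing, 0 of 10 is near the background. Leaving out 1 mouse moved these shares, which rested on 12, 8, 55 and 124 genes, to 6 to 205, 9 to 44, 37 to 67 and 63 to 151 genes. In the contrast over all 38 mice, the mean of APPPS1ΔE9 minus WT over cohort and chow, 1.46% of genes and 0 of 10 members passed. At an unadjusted p under 0.05 this contrast again held 0 of 10 members, against 8.91% of genes. The pairs held 0, 0, 1 and 0 members at that level, against 11.1%, 5.64%, 4.1% and 5.78% of genes, in the order given above. DESeq2 also called 0 of 10 in every one of these comparisons.

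The intervals of the pooled genotype contrast, which was fitted without sex or lane, were narrow for most members. Bace1 differed by 0.00 ± 0.03 (log2 fold change ± SE), with a 95% interval of the fold from 0.960 to 1.04, and Adam10 by 0.01 ± 0.03 (0.961 to 1.05). The subunits Ncstn (0.958 to 1.03), Aph1a (0.932 to 1.09) and Psenen (0.888 to 1.05) had intervals that held a fold of 1. So had the peptidases Ide (0.961 to 1.03), Ece1 (0.926 to 1.05) and Mme (0.932 to 1.13), and also Adam17 (0.958 to 1.07). For Bace2 the interval ran from 0.545 to 1.12, so that this transcript was measured with the least precision. The median absolute log2 difference of the 10 was 0.01, beside 0.05 over all genes tested. In the same mice, markers of plaque-associated microglia summed to 50.5 to 108.2 CPM in post-plaque APPPS1ΔE9 and to 20.35 to 28.4 CPM in post-plaque WT mice, and to 28.5 to 75.02 and 21.45 to 30.75 CPM pre-plaque.

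Adam17 in the post-plaque placebo mice was the 1 member below an unadjusted p of 0.05 in the pairs of groups. It was 0.14 ± 0.06 higher on the log2 scale in APPPS1ΔE9 mice (unadjusted p = 0.0353, adjusted p = 1, edgeR). In CPM it was higher in each of the 5 APPPS1ΔE9 mice than in any of the 5 WT mice, by a narrow gap that was lost without TMM scaling. With anle138b the post-plaque difference was 0.13 ± 0.07. In the pre-plaque mice, Adam17 was at -0.08 ± 0.08 on placebo and at -0.12 ± 0.10 on anle138b. The genotype difference of Adam17 thus differed in sign between the cohorts, and the test of that difference gave 0.24 ± 0.08 (unadjusted p = 0.00428, adjusted p = 0.38). No member passed in the genotype by cohort interaction, against 0.176% of genes, and 1 of 10 lay under an unadjusted p of 0.05, against 7.42% of genes.

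Adam17 differed between pre-plaque mice with low and high choroid plexus markers, which also differed in other markers. In the pre-plaque cohort it was at 18.1 to 20.1 CPM in the 6 mice with choroid plexus sums of 64.8 to 718 CPM, and at 20.01 to 25.2 CPM in the 10 mice with sums of 3963 to 7961 CPM. Neuron markers summed to 6544 to 6949 CPM in the same 6 mice and to 5714 to 6266 CPM in the 10, markers of the hippocampal fields to 809 to 831 and 708 to 786 CPM, and striatum markers to 51.7 to 69.04 and 85.4 to 112.8 CPM, each without overlap. High sums were found in 3 of 4 WT placebo, 3 of 4 WT anle138b, 1 of 4 APPPS1ΔE9 placebo and 3 of 4 APPPS1ΔE9 anle138b mice. Without the 11 mice high in these markers, a fit chosen after the data were seen, the interaction of Adam17 was 0.09 (unadjusted p = 0.419, edgeR). That fit left 3 pre-plaque groups with 1 mouse each, which was taken to vary like the other groups. The part of these tissues in the Adam17 values was not tested.

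None of the 10 transcripts passed the test between anle138b and placebo chow. Of the members, 0 of 10 passed an adjusted p of 0.1 (edgeR) in each of the 4 pairs of chow groups. Over all genes, 0% passed in pre-plaque WT mice, 0.0529% in pre-plaque APPPS1ΔE9 mice, 0% in post-plaque WT mice and 0% in post-plaque APPPS1ΔE9 mice. The unadjusted p under 0.05 held 0 of 10 members in all 4, against 1.85%, 13.1%, 1.25% and 1.48% of genes in that order. Over all 38 mice 0 of 10 members and 0% of genes passed, and 0 of 10 members and 4.81% of genes lay under an unadjusted p of 0.05. DESeq2 called 0 of 10 members throughout, and 2, 205, 0 and 0 genes in the 4 pairs and 5 over all 38 mice. The pooled fold of anle138b over placebo was 1.002 for Bace1 (95% interval 0.965 to 1.04), 1.01 for Adam10 (0.964 to 1.05) and 1.03 for Ncstn (0.992 to 1.06). Mme was at 0.947 (0.859 to 1.04), Ide at 1.02 (0.979 to 1.05), Ece1 at 0.999 (0.940 to 1.06) and Bace2 at 0.966 (0.673 to 1.39). Within lane 4, which holds 4 placebo and 2 anle138b pre-plaque WT mice, 0 of 10 members and 0.00579% of genes passed. The other within-lane fits had 1 mouse in an arm and are not read here.

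The effect of the chow was also compared between genotypes. The interaction of genotype and chow called 0 of 10 members and 0% of genes pre-plaque, and 0 of 10 members and 0% of genes post-plaque (edgeR, adjusted p under 0.1). Under an unadjusted p of 0.05 it held 0 members in both, against 6.54% of genes pre-plaque and 3.14% post-plaque. Bace2 had the widest interaction intervals, with folds of 0.744 (0.251 to 2.21) pre-plaque and 0.544 (0.210 to 1.41) post-plaque. Those of Bace1 were 0.950 (0.847 to 1.07) and 0.982 (0.890 to 1.08).

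Between the cohorts, 7 of 10 members differed past the threshold, beside 61.8% of all genes tested, so the share of the members was near the background. At an unadjusted p under 0.05 it was 7 of 10 and 60% of genes. Mme was lower in the post-plaque mice by a fold of 0.787 (95% interval 0.714 to 0.867, adjusted p = 6.65e-05, edgeR), and Psenen by 0.884 (0.815 to 0.960, adjusted p = 0.00981). Aph1a was higher, at 1.203 (1.11 to 1.30, adjusted p = 0.000118), as was Ece1, at 1.08 (1.02 to 1.15, adjusted p = 0.0233), and Ncstn, at 1.07 (1.03 to 1.10, adjusted p = 0.00188). Adam10 (0.949, adjusted p = 0.0388) and Bace1 (0.962, adjusted p = 0.0796) were lower by less than the within-group SD, and the difference of Ece1 (0.12, log2) was also below its SD (0.13). Bace2 (0.799, adjusted p = 0.288), Adam17 (0.996, adjusted p = 0.908) and Ide (0.9747, adjusted p = 0.232) did not pass. Of the γ-secretase subunits, Aph1a and Ncstn were higher and Psenen lower, while Mme was lower and Ece1 higher by less than its spread. Over all genes 5418 were higher and 5858 lower, so mixed directions were common among all genes too. Age, the age at which the chow started and every other difference between the cohorts, including the choroid plexus and oligodendrocyte markers given above, cannot be told apart.

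**Figure D3:**
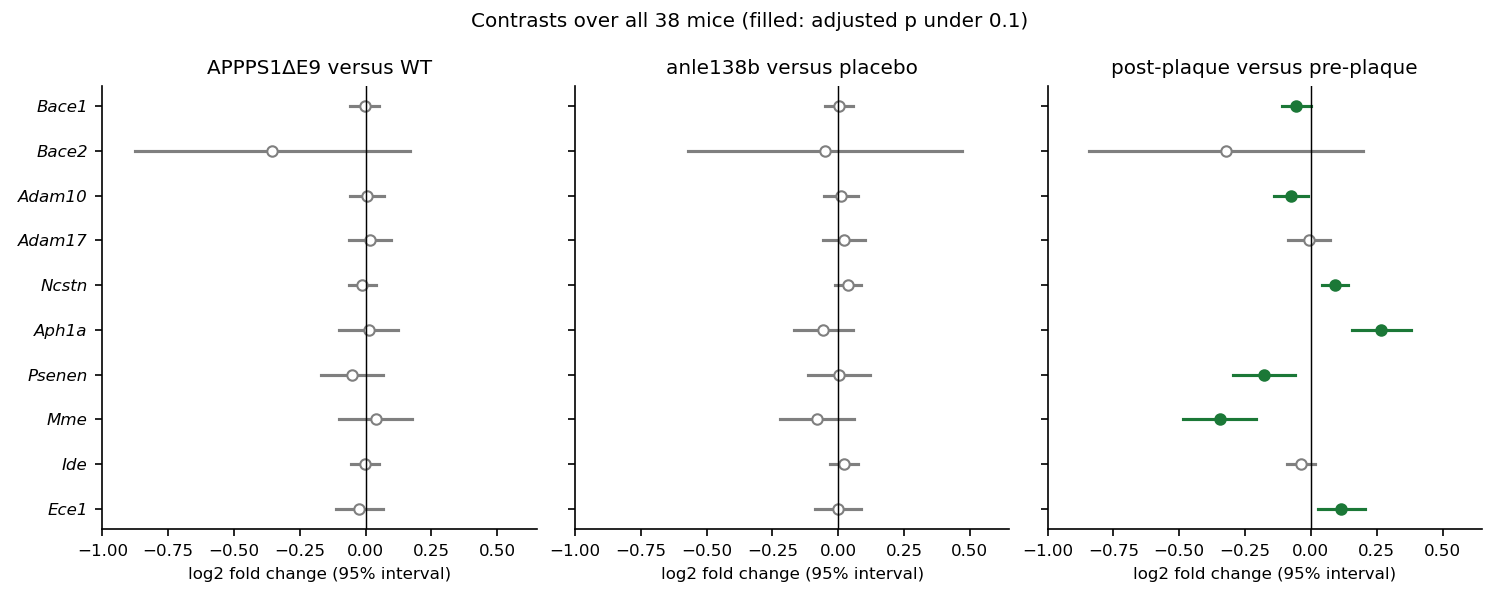
Log2 fold change of each transcript with its 95% interval in the 3 contrasts over 38 mice, APPPS1ΔE9 versus WT, anle138b versus placebo and post-plaque versus pre-plaque. Filled green points passed an adjusted p of 0.1, which 0, 0 and 7 of the 10 members did.

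Some of these cohort calls rested on particular mice. Mme, Aph1a, Ncstn, Psenen and Ece1 passed in all 38 fits that left out 1 mouse, Adam10 in 37 and Bace1 in 20, while Bace2 passed in 1, without post-plaque APPPS1ΔE9 placebo replicate 1 (-0.51, adjusted p = 0.0649, edgeR). Adam10 lost its call without pre-plaque WT anle138b replicate 2, the mouse at 124.9 CPM (log2 fold change -0.05, adjusted p = 0.128, edgeR). Without the 11 mice high in choroid plexus markers, Mme (-0.39), Aph1a (0.30), Ncstn (0.16), Ece1 (0.19) and Psenen (-0.22) still passed, Adam17 passed at 0.14 and Bace1 and Adam10 did not, beside 39.5% of all genes tested. Without the 9 post-plaque mice low in oligodendrocyte markers, Bace2 passed at -1.18 (adjusted p = 1.29e-08) and Bace1 at -0.12 (adjusted p = 8.11e-06), while Ece1 (0.07) and Psenen (-0.12) did not, beside 70.1% of all genes tested. Both fits were chosen after the data were seen.

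Among the post-plaque mice, Bace1 and Bace2 differed between mice with low and high oligodendrocyte markers, which also differed in other markers. The 6 mice with the highest Bace2 were also the 6 with the lowest sums of oligodendrocyte markers, 1478 to 2003 CPM, against 2248 to 5093 CPM in the other 16. Bace1 lay at 122 to 132 CPM in the 9 mice with the lower sums and at 107 to 118 CPM in the 13 with the higher sums, without overlap. The mice were split at the widest gap in these sums. The share of all genes that separate between these mice was not counted, so the separation cannot be called particular to Bace1. The 9 mice came from every post-plaque group, 2 of 5 WT placebo, 3 of 5 WT anle138b, 2 of 5 APPPS1ΔE9 placebo and 2 of 7 APPPS1ΔE9 anle138b. In the pre-plaque mice, with sums of 3148 to 4306 CPM, Bace2 was at 2.05 to 6.90 CPM, so the same sums went with a higher Bace2 than in most post-plaque mice. Other marker lists also differed between the same 9 and 13 mice. Markers of the hippocampal fields summed to 635 to 735 CPM in the 9 and to 813 to 973 CPM in the 13, and thalamus markers to 56.004 to 68.1 and 76.9 to 138 CPM, both without overlap. Pericyte and fibroblast markers had medians of 309 and 141 CPM and cortex layer markers of 140.2 and 104.1 CPM, with overlap. Over 38 mice after removal of group means, Bace2 correlated at -0.77 with oligodendrocyte and at 0.79 with pericyte and fibroblast markers, and Bace1 at -0.84 with oligodendrocyte markers and -0.72 with those of the hippocampal fields. The part of these cells and regions in the values was not tested.

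**Figure D4:**
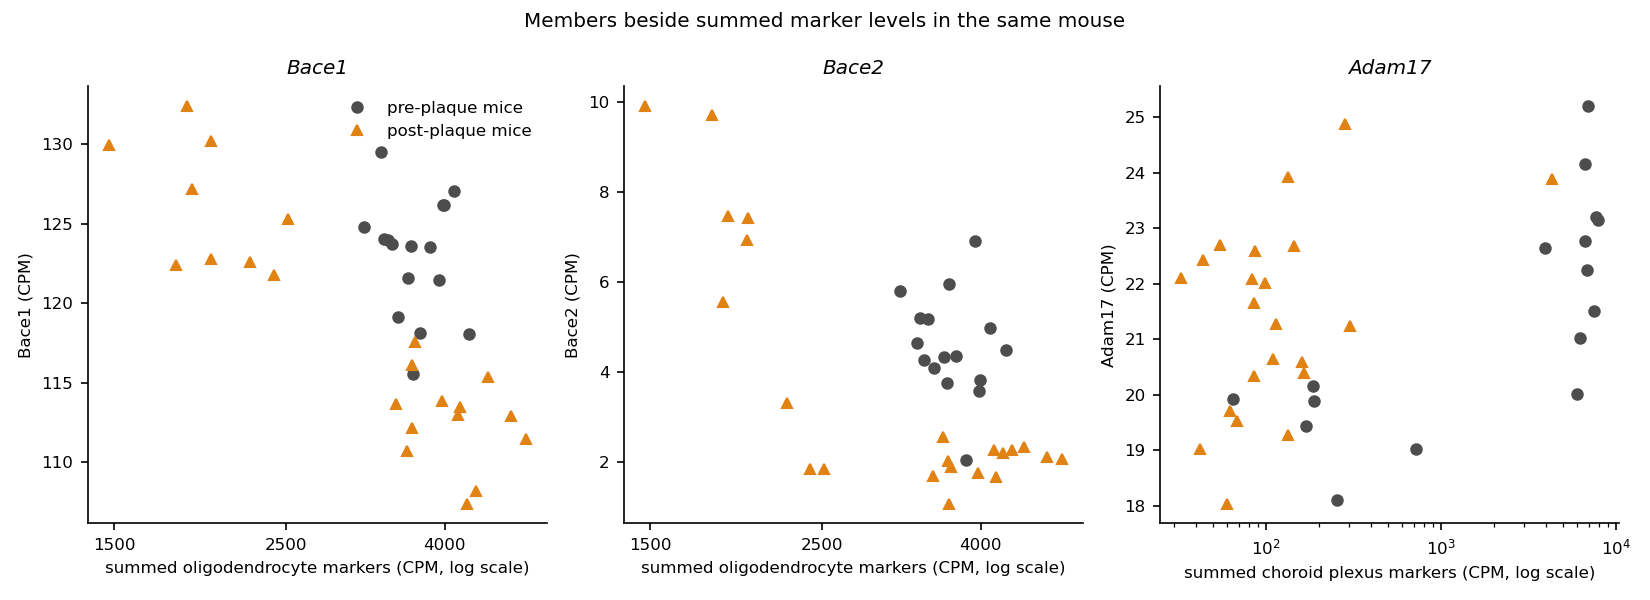
Bace1 and Bace2 against summed oligodendrocyte markers, and Adam17 against summed choroid plexus markers, all in CPM with a log horizontal axis, 1 point a mouse (circles pre-plaque, triangles post-plaque). The 9 post-plaque mice with sums up to 2516 CPM have Bace1 of 122 CPM or more, and the 6 of them with the lowest sums have Bace2 of 5.55 CPM or more.

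The members were also compared with each other from mouse to mouse. Over 45 pairs, the Pearson correlation of log2 CPM after removal of group means had a median of 0.02 and ran from -0.43 to 0.59 (38 mice, which share library and depth), with an absolute value of 0.35 or more in 10 pairs. The highest values were those of Bace1 with Bace2 (0.59), Adam10 with Ide (0.54) and Bace1 with Ide (0.51). Among all 18232 tested genes, Bace1 was most like Nectin1 (0.92), Ak4 (0.92) and Cand1 (0.91), and Bace2 most like Gm29683 (0.89), Peg10 (0.88) and Tacr1 (0.88). Adam10 was most like Xpo1 (0.79), Caprin1 (0.78) and Snx6 (0.77), and Adam17 most like Chuk (0.77), Abhd2 (0.76) and Atp7a (0.75). Ncstn was closest to Qsox1 (0.73), Tm9sf1 (0.71) and Gm44746 (0.70), Psenen to Pdcl3 (0.71), Spop (0.71) and Zc4h2 (0.70), and Aph1a to Gm8822 (0.64), Gm9522 (0.64) and Cav1 (0.64). Mme was closest to Trpa1 (0.75), Echdc2 (0.69) and Xpnpep2 (0.66), Ide to Mphosph8 (0.82), Fmnl2 (0.81) and Avl9 (0.81), and Ece1 to Pgd (0.82), Myo1c (0.79) and Nelfcd (0.78).

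Lists of related genes were followed beside the members, namely paralogs of secretase subunits and further APP-cleaving proteases (6 of 7 tested), proteins of secretase traffic and maturation (21 of 21), further Aβ-degrading proteases (10 of 11) and secretase substrates other than App (17 of 18). In the genotype contrast over 38 mice, 1 of 6, 0 of 21, 1 of 10 and 0 of 17 of them passed, all higher in APPPS1ΔE9 mice, and the chow contrast called none of the 54 (edgeR, adjusted p under 0.1). The median log2 differences by genotype were 0.03, 0.02, -0.04 and 0.02, beside 0.00 over all genes. The gene that passed among the degrading proteases was Plau, the urokinase that activates plasmin. The gene among the APP-cleaving proteases was Lgmn, the lysosomal asparagine endopeptidase also known as δ-secretase.

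Plau was at 1.76 to 3.03 CPM in post-plaque WT placebo mice and at 1.30 to 2.43 CPM in WT anle138b mice. In post-plaque APPPS1ΔE9 mice it was at 2.74 to 4.67 CPM on placebo and at 3.49 to 5.95 CPM on anle138b. The groups on anle138b did not overlap, and those on placebo did. Its log2 fold change was 0.59 ± 0.11 over all 38 mice (adjusted p = 0.00219, edgeR) and 1.13 ± 0.18 in the post-plaque anle138b mice (adjusted p = 0.0109). The first call was lost with Y-linked expression as a covariate (0.48, adjusted p = 0.118), and the second without the mice low in oligodendrocyte markers (1.01, adjusted p = 0.25). In the other pairs Plau did not pass. It was at 0.679 on placebo and -0.0794 on anle138b in pre-plaque mice, and at 0.609 in post-plaque placebo mice. Lgmn was at 80.8 to 97.2 CPM in the 10 post-plaque WT mice and at 92.6 to 115 CPM in the 12 post-plaque APPPS1ΔE9 mice. Lgmn passed in none of the pairs of groups in the main fits. In post-plaque anle138b mice it passed with DESeq2 (adjusted p = 0.0303). There it also passed in edgeR with the Y-linked covariate (adjusted p = 0.0499) and with all 8 groups in 1 fit (adjusted p = 0.0144). It did not pass there with RLE scaling, without a filter, or with the replicate block or oligodendrocyte covariate. In post-plaque placebo mice Lgmn passed only with all 8 groups in 1 fit (adjusted p = 0.036, edgeR). Its log2 fold change on placebo and anle138b was 0.0386 and 0.075 pre-plaque, and 0.225 and 0.219 post-plaque. Over 38 mice it was 0.14 ± 0.03 higher in APPPS1ΔE9 mice (adjusted p = 0.00294). Without the 11 mice high in choroid plexus markers it did not pass (0.17, adjusted p = 0.256).

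Between the cohorts, the paralogs of Aph1a moved against it. Aph1b (-0.15 ± 0.03, log2) and Aph1c (-0.22 ± 0.06) were lower post-plaque, as were Lgmn (-0.22 ± 0.03) and Adam9 (-0.11 ± 0.03), so 4 of 6 of that list fell and 0 rose. Aph1b and Aph1c are near-identical copies, and their split of reads is uncertain. Of the traffic and maturation list, 6 of 21 rose and 7 fell. Gga3 (0.36 ± 0.03) and Gga2 (0.19 ± 0.02), adaptors that sort Bace1 to lysosomes, rose, as did Gsap (0.26 ± 0.04), Furin (0.20 ± 0.05), which cleaves the prodomain of Adam10 and Bace1, Nrd1 (0.13 ± 0.03) and Rhbdf1 (0.35 ± 0.09). Those that fell were the tetraspanins Tspan14 (-0.24 ± 0.03), Tspan15 (-0.12 ± 0.05) and Tspan33 (-0.27 ± 0.10), which carry Adam10 to the surface, the Adam17 inhibitor Timp3 (-0.21 ± 0.07), Sorcs1 (-0.31 ± 0.09), Tmed10 (-0.16 ± 0.02) and Rtn4 (-0.08 ± 0.04). Of the further degrading proteases, Ece2 (0.22 ± 0.05) and Pitrm1 (0.08 ± 0.03) rose, and Mmp2 (-0.76 ± 0.13), Mmp14 (-0.61 ± 0.12), Htra1 (-0.18 ± 0.04) and Ace (-1.96 ± 0.31) fell. Ace, the angiotensin-converting enzyme, ranged from 12.1 to 109.4 CPM in pre-plaque mice. Choroid plexus sums were high in 10 of 16 pre-plaque and 1 of 22 post-plaque mice. The part of this tissue in the Ace difference was not tested. Of the substrates, 4 of 17 rose (Notch1, 0.19 ± 0.06; Sez6l, 0.13 ± 0.03; Nrg3, 0.12 ± 0.03; Lrp1, 0.12 ± 0.04). Another 4 fell, the APP homologs Aplp1 (-0.11 ± 0.03) and Aplp2 (-0.17 ± 0.02), Nlgn1 (-0.15 ± 0.05) and Chl1 (-0.17 ± 0.08). These shares stood beside 61.8% of all genes.

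Among the genes of these lists that did not pass, those of smallest unadjusted p in the other contrasts over 38 mice were as follows. Of the traffic list, Gga3 was at -0.08 ± 0.03 with anle138b (unadjusted p = 0.00465, adjusted p = 0.9998, edgeR), Gga2 at -0.05 ± 0.02 with anle138b, Tspan17 at 0.11 ± 0.04 and Ifitm3 at 0.26 ± 0.11 by genotype, and Tspan14 at 0.17 ± 0.07 in the genotype by cohort interaction. Of the substrates, Sez6l was at 0.10 ± 0.03 by genotype (adjusted p = 0.216), Sez6 at -0.25 ± 0.12, Ncam1 at -0.15 ± 0.07 and Sez6l2 at -0.15 ± 0.08 in the interaction, and Lrp1 at -0.06 ± 0.04 with anle138b. Of the degrading proteases, Mmp14 was at -0.31 ± 0.13 by genotype, Pitrm1 at -0.04 ± 0.03 by genotype, and Mmp2 at 0.26 ± 0.13 and Ace at 0.49 ± 0.31 with anle138b. Of the APP-cleaving list, Adam9 was at 0.12 ± 0.06 and Aph1b at -0.11 ± 0.07 in the interaction, Mmp24 at 0.05 ± 0.03 by genotype and Aph1c at 0.07 ± 0.06 with anle138b.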

How the data were processed

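Hippocampal RNA of 38 mice was isolated with Trizol and made into TruSeq mRNA libraries. The authors mapped reads with STAR to mm10 and deposited raw read counts per gene from HTSeq (intersection-nonempty), with no normalization. The annotation release and strand setting are not given in the sources used here. Gene names and exon lengths came from GENCODE M21 (GRCm38), which held 48349 of 48709 identifiers. Counts were filtered with filterByExpr (minimum count 10, minimum total 15), normalized with TMM and tested in edgeR 4.0.16 (R 4.3.3) with the quasi-likelihood test, robust estimation and Benjamini-Hochberg adjustment over all tested genes, called at 0.1. There were 8 fits of 2 groups and 1 fit of all 8 groups for 6 contrasts. DESeq2 1.42.0 was an alternative. Scripts were tested on simulated data. CPM values use TMM-scaled totals, and log2 CPM for correlations a prior count of 2. Depth limits precision to counting error on top of the spread between mice, which are separate animals.

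Groups came from the sample titles. The members and lists were chosen with earlier results of these data known. Named genes were all 10 members, every list gene past the threshold and up to 5 per list of smallest p in the pooled contrasts, and the 3 genes most like each member. Some items of the gene and marker lists were left out and are not reported here.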

Additional observations from a re-analysis of the deposited data

Results flagged for a closer look

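In 7 of 80 sets of values (10 transcripts in 8 groups), 1 mouse lay farther from its group than Dixon's 95% limit for the gap to the nearest mouse, where chance flags about 1 in 20. For Bace2, post-plaque APPPS1ΔE9 placebo replicate 1 was at 9.70 CPM with the nearest mouse at 3.32 CPM, and APPPS1ΔE9 anle138b replicate 4 was at 5.55 CPM with the nearest at 2.35 CPM. Their oligodendrocyte markers summed to 1802 and 1862 CPM. Pre-plaque WT anle138b replicate 2 stood out for Adam10, at 124.9 CPM beside 106.8 CPM, and for Aph1a, at 5.23 CPM beside 3.68 CPM. Mme was at 11.1 CPM in post-plaque WT placebo replicate 1, beside 8.14 CPM. Ide was at 62.9 CPM in post-plaque APPPS1ΔE9 placebo replicate 2, beside 55.7 CPM. Ece1 was at 45.9 CPM in pre-plaque APPPS1ΔE9 placebo replicate 2, beside 38.1 CPM, in the mouse with the lowest choroid plexus sum of its cohort, 64.8 CPM.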

How the results depend on the processing

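In the genotype, chow and interaction comparisons the count of members called was 0 of 10 in all 128 alternative results and in all 266 results that left out 1 mouse. These are counted per comparison, so several contrasts of the same fit count separately. The 128 include the main fits read at an adjusted p under 0.05, which could not add a call. Of 3940 member values under these alternatives, which repeat the main values for that threshold, 346 changed sign, none of them past the threshold. The lowest adjusted p was 0.126 (edgeR), for Adam17 in the genotype by cohort interaction without pre-plaque WT anle138b replicate 4. Between the cohorts, 7 of 10 became 5 to 8 when 1 mouse was left out, and 5 with the replicate block, 6 without a filter, 6 at an adjusted p under 0.05, 7 with DESeq2, RLE scaling or the Y-linked covariate and 9 with oligodendrocyte markers as a covariate. Adam17 had no called direction between the cohorts (-0.01). Without the 11 mice high in choroid plexus markers it was at 0.14, and the cause was not tested. Over all genes the calls depended more on the method. For genotype they went from 12 to 89 with DESeq2 and 110 without a filter (pre-plaque placebo), from 8 to 42 with DESeq2 (pre-plaque anle138b), from 55 to 25 with the replicate block (post-plaque placebo) and from 124 to 20 with it (post-plaque anle138b). With all 8 groups in 1 fit these 4 counts were 42, 53, 118 and 189. The pooled genotype count of 266 was 89, and that of the genotype by cohort interaction 0 in place of 32, without the mice high in choroid plexus markers, and the latter was 60 with DESeq2 and 10 with the replicate block. The fits with oligodendrocyte markers as a covariate or without mice by marker sums were chosen after seeing the data. For chow in pre-plaque APPPS1ΔE9 mice they went from 9 to 205 with DESeq2, 120 without a filter and 94 with the Y-linked covariate. Without pre-plaque APPPS1ΔE9 placebo replicate 1, 205 genes passed by genotype (placebo) and 317 by chow (APPPS1ΔE9). The former were 6 without replicate 3 of that group or WT placebo replicate 2, and 23 without WT placebo replicate 3. Without pre-plaque APPPS1ΔE9 anle138b replicate 4, 44 passed by genotype (anle138b) and 16 by chow. That mouse was the only one of its group with low choroid plexus markers. Pre-plaque APPPS1ΔE9 placebo replicate 1 was the only one of its group with high ones. The part of these markers in the counts of genes was not tested. By genotype in post-plaque anle138b mice, 63 to 82 passed without WT replicate 1 or 2 or APPPS1ΔE9 replicate 1, 2 or 7. The 32 calls of the genotype by cohort interaction became 9 to 43, beyond 1.5 times in 23 of 38 fits. Replicate numbers did not pair mice, since deviations of same-numbered mice correlated at -0.69 to 0.69 over 36 pairs and in 0 of 8 comparisons was every pair over 0.1. Among members the replicate block changed the calls of Bace1 (-0.04, adjusted p = 0.195) and Adam10 (-0.06, adjusted p = 0.122) between the cohorts, and it moved Plau in post-plaque anle138b mice to an adjusted p of 0.148. CPM without TMM moved none of 80 group means beyond their SD, but the post-plaque placebo groups then overlapped in Adam17. Within-lane fits rest on 1 or 2 mice in an arm, so they say little, and Aph1a, Psenen and Bace2 on few reads.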

Other observations

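Beyond the β-secretases, other members also differed in level between the post-plaque mice with low and high oligodendrocyte marker sums, though with overlap. Ece1 had a median of 44.9 CPM (42.7 to 50.4) in the 9 mice with the lower sums and of 42.4 CPM (35.5 to 45.6) in the other 13. Ide had medians of 57.1 CPM (54.7 to 62.9) and 53.4 CPM (49.8 to 59.4), and Psenen of 3.87 CPM (3.61 to 5.24) and 4.41 CPM (3.91 to 5.33). The medians were 102 and 99.3 CPM for Adam10, 20.6 and 22.1 CPM for Adam17, 67.1 and 68.2 CPM for Ncstn, 4.99 and 4.91 CPM for Aph1a, and 8.60 and 7.94 CPM for Mme. In the pre-plaque mice with low and high choroid plexus sums, Ncstn had medians of 61.4 CPM (58.1 to 66.4) and 65.01 CPM (61.7 to 73.9), and Bace1 of 126 CPM (124 to 129.5) and 122 CPM (116 to 125). Ace, a degrading protease outside the members, was at 7.18 to 18.7 CPM in post-plaque mice except in the APPPS1ΔE9 anle138b group, where its highest value was 65.3 CPM. That group held the 1 post-plaque mouse with a high choroid plexus sum, 4348 CPM. These sets of mice were defined from marker levels and are not groups of the study, so no test was made.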
